A study of Mus musculus with 8 samples.

Results

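STAT proteins are latent transcription factors. Cytokine binding brings receptor chains together, the JAK kinases bound to those chains phosphorylate a docked STAT, and the STAT dimer moves to the nucleus and binds DNA. Each family member has its usual inputs in T cells: STAT2 works with IRF9 downstream of type I interferon, STAT3 downstream of IL-6, IL-10, IL-21 and IL-23, STAT4 downstream of IL-12, STAT5A and STAT5B downstream of IL-2, IL-7 and IL-15, and STAT6 downstream of IL-4 and IL-13. The transcripts of 6 STAT genes (Stat2, Stat3, Stat4, Stat5a, Stat5b and Stat6) are described here. They were chosen by gene symbol, as 6 of the 25078 gene rows of the deposited tables, and all 6 passed the filter on low counts, as did 12428 genes in all.

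Donor T cells were taken from the spleen of mouse recipients on day 6 after hematopoietic cell transplantation (HCT), and their mRNA was sequenced. The donors were WT C57BL/6 mice or STAT3KO mice, that is C57BL/6 mice with a floxed Stat3 allele and a CD4-Cre transgene, whose Cre acts in T lineage cells. CD4 or CD8 T cells of donor type were sorted, which gave 4 groups (CD4 from WT, CD4 from STAT3KO, CD8 from WT and CD8 from STAT3KO) of 2 libraries each, and each library pooled several recipients. All recipients were lethally irradiated BALB/c mice that also received T cell-depleted bone marrow from WT donors. Ages are not given in the sources used here. The libraries held 20171396 to 23282757 counts, of which the 6 STAT genes took 0.127% to 0.194%. With 2 libraries per group, a p-value measures the spread between pools of animals. Libraries carry a replicate number, for which the main edgeR fit has no term. Its p-values therefore count any difference shared by same-numbered libraries as part of that spread.

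The labelled cell types were matched by their markers. For these cell type markers, CPM is a count scaled to the library total. For other genes CPM is also scaled with factors from the trimmed mean of M values. Cd4 stood at 1403 to 1597 CPM in the CD4 libraries and at 1.03 to 8.05 CPM in the CD8 libraries. The summed level of Cd8a and Cd8b1 was 18.0 to 51.9 CPM and 1788 to 2097 CPM, respectively. The sum of 5 macrophage and monocyte markers was 3.26 to 7.62 CPM in the libraries numbered 1 and 32.5 to 54.2 CPM in those numbered 2, in all 4 groups. Among the other lists, the erythroid markers summed to at most 0.934 CPM, with Hba-a1 and Hbb-bs at 0 throughout, and the neutrophil and progenitor markers to at most 15.0 CPM. In these bulk samples, fewer cells of a type and less RNA per cell cannot be told apart.

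Stat5b, Stat5a and Stat3 lie side by side. Their positions in mm10 are chr11:100780731-100850581 on the minus strand for Stat5b, chr11:100859351-100885169 on the plus strand for Stat5a and chr11:100886806-100939540 on the minus strand for Stat3, with 8769 bases between the Stat5 genes and 1636 bases between Stat5a and Stat3. Stat6 (chr10:127642986-127660987) and Stat2 (chr10:128270498-128292853) share chromosome 10 at a distance of 609510 bases, and Stat4 (chr1:51987148-52107189) stands on chromosome 1. Those 3 genes are read from the plus strand. In the GENCODE annotation, exons of Stat5a and Stat3 share 72 bases on opposite strands, Stat6 shares 40 exon bases with Nab2 on the opposite strand, and 1033 exon bases of Stat4 (26.7%) also belong to Gm28177, a processed transcript on the same strand. The counts, however, were made on RefSeq genes. In the deposited table the spans of Stat3, Stat4, Stat5a and Stat5b overlap no other gene, that of Stat2 overlaps Apof, and that of Stat6 overlaps Nab2. The strand setting of the counting is not stated, so the origin of reads in bases shared by opposite strands is not certain. No strand setting would separate Stat4 from Gm28177.

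RefSeq start-site windows (GRCm38.p6, 250 bases before to 50 after a start site) were found for all 6 genes, 9 windows in all. The closest resemblance between windows of different genes was seen for the Stat5 pair: the second windows of Stat5a and Stat5b share a stretch of 65 bases without gaps, of which 58 (89.2%) are identical. The 30 bases of it with the most identical positions are shown because the Stat5 genes are set against each other in the results. Capitals mark the 28 identical bases.

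Stat5a, chr11:100860435-100860464, plus strand: GCAGCTGACCTTTgAGgAGGAAATCGCTGC

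Stat5b, chr11:100822581-100822610, minus strand: GCAGCTGACCTTTtAGaAGGAAATCGCTGC

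The windows were also searched on both strands for 3 motifs. The first is TTCNNNGAA, the core of the sites most STAT dimers bind. The next has the same TTC and GAA with 4 free bases between them, the spacing preferred by STAT6. The last is GAAA repeated after 2 free bases, the core of the site bound by STAT2 with IRF9. Over 32851 mouse promoter windows of the same length, 8.3%, 6.95% and 3.44% held them. Among the 9 windows, matches were found in the window of Stat2 and in the second window of Stat4, and the matched bases are given in capitals within 30 bases of sequence. The first line holds the GAAA repeat read on the minus strand and the next the STAT6 spacing, in stretches of Stat2 that overlap, while the capitals of one line share no position with those of the other. The last line holds the GAAA repeat. A match is a description of the letters and not a measured binding site.

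Stat2, position -222, chr10:128270266-128270295, plus strand: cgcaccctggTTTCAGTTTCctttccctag

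Stat2, position -210, chr10:128270278-128270307, plus strand: tcagtttcctTTCCCTAGAActcacggttc

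Stat4, position -97 of the second start site, chr1:52008133-52008162, plus strand: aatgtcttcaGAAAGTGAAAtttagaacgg

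The STAT genes differed widely in level. Read per exon length as the deposited RPKM (reads scaled to exon length and library size), Stat4, which carries the IL-12 signal, stood highest in each of the 8 libraries and Stat2 lowest. In WT CD4 T cells the mean RPKM was 207 ± 19.4 (SD, n = 2) for Stat4, 95.6 ± 0.0625 for Stat3, 56.7 ± 7.52 for Stat6, 49.8 ± 4.81 for Stat5a, 38.8 ± 0.284 for Stat5b and 13.3 ± 1.59 for Stat2. Stat6 and Stat5a overlapped there (62.0 and 51.4 RPKM against 46.4 and 53.2), and the other neighbours in this order did not. In WT CD8 T cells the order was the same, with means of 164, 95.1, 51.2, 26.6, 26.4 and 11.0 RPKM, but here Stat5a and Stat5b were the pair that overlapped. These levels rest on the deposited exon lengths (4520 bases for Stat3, 3968 for Stat5a and 7954 for Stat5b). GENCODE exons cover 9527, 7133 and 5539 bases for these genes. Ranks between genes and shares of their sum could therefore differ with another annotation, which was not tested.

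In STAT3KO T cells the order changed. Stat4 made up 44.8% of the summed RPKM of the 6 genes in WT CD4 T cells and 58.2% in STAT3KO CD4 T cells, and 43.9% and 59.0% in CD8 T cells. The share of Stat3 was 20.8% and 8.03% in CD4 and 25.4% and 8.44% in CD8 T cells. Stat6 took the rank below Stat4 in STAT3KO T cells of both kinds, at 62.6 ± 3.87 RPKM in CD4 and 55.9 ± 5.79 RPKM in CD8. The level of Stat3 overlapped that of Stat5b in STAT3KO CD4 T cells (30.2 and 30.5 RPKM against 32.6 and 27.3). Among CD4 T cells the 6 genes summed to 461 ± 15.3 RPKM in WT and 378 ± 6.09 RPKM in STAT3KO. Among CD8 T cells the sums were 375 ± 6.57 and 340 ± 13.5 RPKM. Shares of a sum depend on each other, so a smaller Stat3 share raises the others even where their own level is the same.

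**Figure D1:**
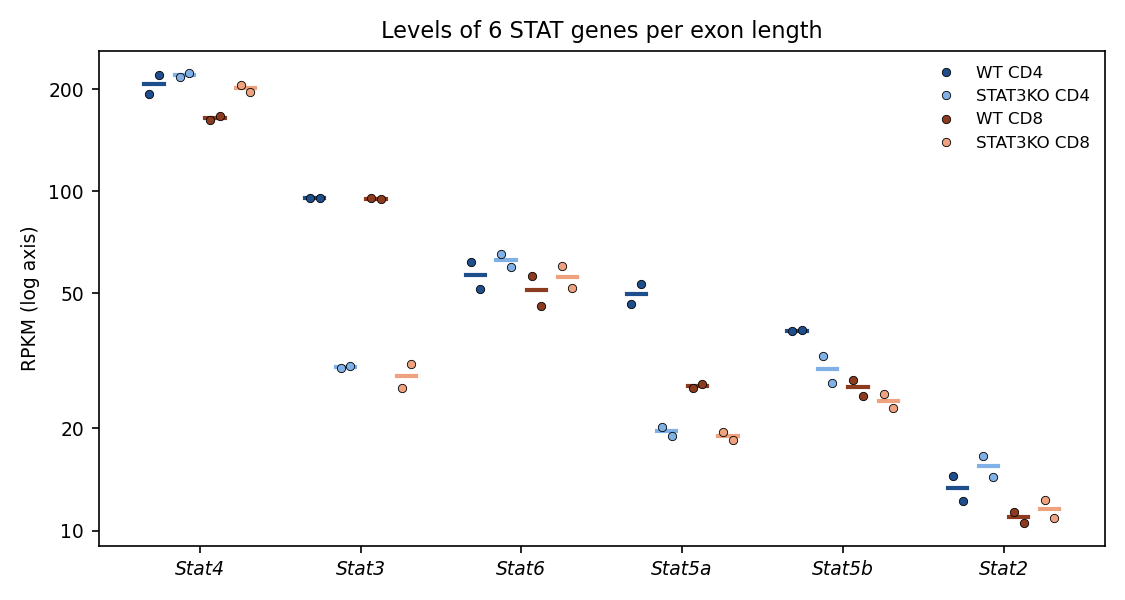
Level of each STAT gene in RPKM (vertical log axis) in the 2 libraries of each of 4 groups (points) with the group mean (line). Stat4 is highest and Stat2 lowest in every library, and the STAT3KO points of Stat3 lie near 30 RPKM against about 95 in WT.

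Stat3 itself, the targeted gene, was lower in every STAT3KO library. In CPM, WT CD4 T cells had 436 and 428 and STAT3KO CD4 T cells 138 and 141, while WT CD8 T cells had 431 and 436 and STAT3KO CD8 T cells 120 and 143. The STAT3KO libraries thus kept 32.4% of the WT level in CD4 and 30.3% of it in the CD8 libraries. The change was -1.63 on the log2 scale in CD4 (SE 0.12, adjusted p = 0.000753) and -1.72 in CD8 (SE 0.12, adjusted p = 0.00536) by edgeR's quasi-likelihood test with Benjamini-Hochberg adjustment over all genes tested. Counts are sums over the whole gene, so they include any read from exons that remain after Cre recombination and do not measure the deleted part alone. Both changes were called in each of the 18 alternative fits.

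The question of the genotype comparison was what else changes when donor T cells lack STAT3, here within the family. In CD4 T cells, 2 of the 6 STAT genes were called at an adjusted p under 0.05, Stat3 and its neighbour Stat5a, both lower, while 11.6% of all genes tested were called, 6.54% higher and 5.08% lower in STAT3KO. The WT and STAT3KO libraries did not overlap for 5 of the 6, all but Stat6, against 53.5% of all genes. Among CD8 T cells, 1 of 6 was called, Stat3, against 2.07% of all genes (1.34% higher and 0.732% lower), and 3 of 6 did not overlap (Stat3, Stat4 and Stat5a) against 49.7% of all genes, a share near the background. Averaged over both cell types, Stat3 and Stat5a were called lower, against 19.3% of all genes. Stat3 is the targeted gene, so its fall was set by the design, and it is counted in each of these tallies. Besides Stat3, Stat5a alone was called in CD4 T cells and on average, and no STAT gene was called in CD8 T cells.

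Stat5a, which with Stat5b carries the IL-2, IL-7 and IL-15 signal, was at 185 and 209 CPM in WT CD4 and at 81.3 and 77.3 CPM in STAT3KO CD4 T cells. The STAT3KO level was 40.2% of WT, and the WT and STAT3KO libraries did not overlap. This was a change of -1.32 (SE 0.10, 95% interval -1.55 to -1.08, adjusted p = 0.000806), and it was called in each of 18 alternative fits. Among CD8 T cells Stat5a was at 104 and 109 CPM in WT and at 78.3 and 75.2 CPM in STAT3KO, again without overlap. The difference was -0.47 (SE 0.10, 95% interval -0.70 to -0.25), with an adjusted p of 0.0596 in the edgeR quasi-likelihood fit, and it was not called. With the replicate number as a block the adjusted p was 0.00517, and DESeq2 gave 0.00318, so this call depended on the fit.

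Stat5b, the other IL-2 transducer, lies on the far side of Stat5a from Stat3. In CD4 T cells it was at 310 and 308 CPM in WT and at 262 and 223 CPM in STAT3KO, which did not overlap. The difference of -0.35 (SE 0.12, adjusted p = 0.105 in edgeR) was not called, but it was with the replicate block (adjusted p = 0.00796) and in DESeq2 (adjusted p = 0.0396). Its CD8 levels of 221 and 202 CPM in WT overlapped 203 and 187 CPM in STAT3KO, and the difference was -0.12 (SE 0.12, 95% interval -0.39 to 0.16).

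The balance of the Stat5 pair is given per library and was not tested on its own. For CD4 the ratio of Stat5a to Stat5b RPKM was 1.20 and 1.36 in WT and 0.62 and 0.70 in STAT3KO. For CD8 the WT libraries had ratios of 0.94 and 1.08 and the STAT3KO libraries 0.77 and 0.80. By the deposited exon lengths, Stat5a was thus the more abundant of the pair in WT CD4 T cells and the less abundant in all 4 STAT3KO libraries. Those lengths are 3968 bases for Stat5a and 7954 for Stat5b, against 7133 and 5539 exon bases in GENCODE. Which gene stands higher therefore depends on the annotation, while the change of the ratio between groups does not. Before scaling to length, counts were higher for Stat5b in every library (WT CD4: 6207 and 6516 against 3717 and 4428). Both genes summed to 85.0 and 92.2 RPKM in WT CD4 T cells against 52.8 and 46.3 RPKM in STAT3KO CD4 T cells. The CD8 sums were 54.1 and 52.0 RPKM for WT and 44.9 and 41.5 RPKM for STAT3KO.

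Stat4, the IL-12 transducer, was not called in either cell type. Its levels of 613 and 689 CPM in WT CD4 and 693 and 719 CPM in STAT3KO CD4 T cells differed by 0.12 on the log2 scale (SE 0.10, 95% interval -0.12 to 0.35). For CD8, 511 and 534 CPM in WT lay below 654 and 631 CPM in STAT3KO, a difference of 0.30 (SE 0.10, adjusted p = 0.161 in edgeR). With the replicate block the CD8 difference had an adjusted p of 0.0300 and was called higher.

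Stat2, the partner of IRF9 in interferon signalling, was at 65.3 and 54.2 CPM in WT CD4 and 75.4 and 66.2 CPM in STAT3KO CD4 T cells. The difference of 0.25 (SE 0.13, 95% interval -0.06 to 0.55, edgeR adjusted p = 0.272) was called only with the replicate block (adjusted p = 0.0472). For CD8, 51.0 and 47.9 CPM in WT overlapped 55.4 and 49.8 CPM in STAT3KO, a difference of 0.09 (SE 0.13).

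Stat6, which transmits the IL-4 signal, overlapped between the genotypes in both cell types. Its 238 and 194 CPM in WT CD4 overlapped 252 and 234 CPM in STAT3KO CD4 T cells (0.17, SE 0.15), and its 215 and 178 CPM in WT CD8 overlapped 230 and 202 CPM in STAT3KO CD8 T cells (0.14, SE 0.15). The 95% intervals were -0.17 to 0.51 and -0.20 to 0.48. Averaged over both cell types, Stat2, Stat4, Stat5b and Stat6 were each called in edgeR with the replicate block (adjusted p = 0.0455, 0.0157, 0.0082 and 0.0431). Without the block none of them was called in edgeR (adjusted p = 0.243, 0.0798, 0.0926 and 0.343), while DESeq2 called Stat4 and Stat5b. Of the 2399 genes the main fit called for this average, DESeq2 also called 2298. For this average the block also called more of all genes than the 19.3% of the main fit, and the count stands in the section on processing.

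**Figure D2:**
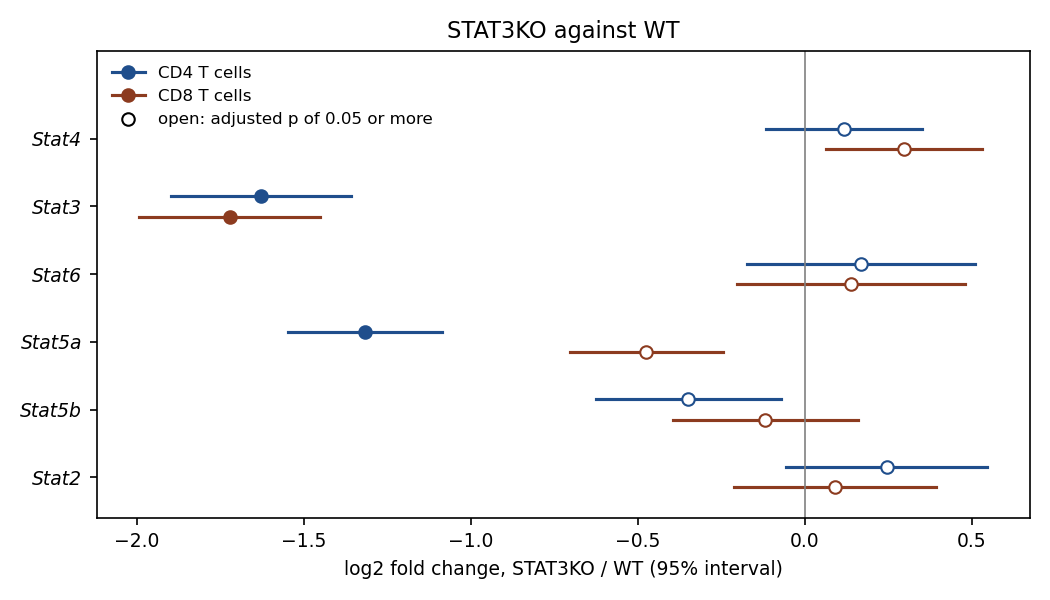
Log2 fold change of each STAT gene in STAT3KO against WT T cells (horizontal axis) with its 95% interval, for CD4 (blue) and CD8 T cells (brown); filled points have an adjusted p under 0.05. Stat3 lies at -1.63 and -1.72, Stat5a at -1.32 (CD4) and -0.47 (CD8), and the intervals of Stat6 include 0.

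Markers of other cell types were set beside these changes. In CD4 T cells the B cell list summed to 0.942 and 1.51 CPM for WT and to 2.31 and 2.78 CPM for STAT3KO, nearly all of it Cd79b, which was called higher. The macrophage list was higher in STAT3KO within each replicate number in CD4 T cells (7.62 against 5.40 CPM and 45.7 against 32.5 CPM), and in CD8 T cells it was higher in number 1 (6.16 against 3.26 CPM) and lower in number 2 (47.4 against 54.2 CPM). The dendritic cell list overlapped between WT and STAT3KO in CD4 T cells. Among CD8 libraries the dendritic cell list was at 239 to 272 CPM in WT and 160 to 207 CPM in STAT3KO, almost wholly through Itgax, with Siglech at 0 and Flt3 at most 0.0445 CPM. There the NK cell list (22.4 to 26.3 against 14.2 to 19.5 CPM) and the neutrophil list (6.44 to 15.0 against 4.69 to 5.43 CPM) were also higher in the WT libraries. Nearly all of the NK cell list was Klrb1c, with Ncr1 at most 0.222 CPM in the CD8 libraries. The part of the cells behind these markers in the STAT values was not tested.

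The lineage comparison asked how CD8 T cells differ from CD4 T cells. In WT T cells, 2 of the 6 STAT genes were called, Stat5a and Stat5b, both lower in CD8, against 23.8% of all genes called and 11.6% called lower. The CD4 and CD8 libraries did not overlap for 4 of the 6 in WT (59.3% of all genes) and for 4 in STAT3KO (58.3%). In STAT3KO T cells none of the 6 was called by edgeR's quasi-likelihood test, against 12.5% of all genes. Of the 6, 2 had an unadjusted p under 0.05 there (Stat2 and Stat5b), as did 3416 of the 12428 genes tested. DESeq2 and edgeR's likelihood-ratio test each called 1 of the 6, Stat2. Of the 1555 genes that the quasi-likelihood test called there, they also called 1495 and 1541. The WT comparison shares its WT CD4 libraries with the genotype comparison in CD4 T cells.

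Stat5a in WT fell by 0.89 on the log2 scale from CD4 to CD8 T cells (SE 0.10, edgeR adjusted p = 0.00073), from a mean of 197 ± 16.8 CPM to 107 ± 3.4 CPM. Among STAT3KO T cells it stood at 79.3 ± 2.83 CPM in CD4 and 76.8 ± 2.21 CPM in CD8, with a difference of -0.05 (SE 0.10, 95% interval -0.28 to 0.18). Of the 4 groups, WT CD4 T cells thus had the highest Stat5a level, WT CD8 T cells the next, and the STAT3KO groups overlapped. The difference of the STAT3KO effects, CD8 minus CD4, was 0.84 for Stat5a (SE 0.14, 95% interval 0.52 to 1.16, adjusted p = 0.125 in edgeR). No gene of the 12428 was called for this difference by edgeR's quasi-likelihood test (0% of all genes, 982 genes at an unadjusted p under 0.05, and 190 called by DESeq2). For Stat5a the replicate block gave an adjusted p of 0.00676, DESeq2 0.000207 and edgeR's likelihood-ratio test 0.00126. The other 5 STAT genes had adjusted p-values of 0.903 to 0.999 in edgeR for this difference.

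Stat5b in WT was lower in CD8 T cells by -0.54 (SE 0.12, edgeR adjusted p = 0.0144), from 309 ± 1.25 to 212 ± 13.5 CPM. This call was lost without the library WT CD8 replicate 2 (edgeR adjusted p = 0.0814). In STAT3KO T cells Stat5b differed by -0.31 (SE 0.12, adjusted p = 0.134 in edgeR and 0.0150 with the replicate block). Its 4 groups ran from CD4 to CD8, with WT above STAT3KO in each, and the CD8 groups overlapped.

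Stat4 differed by -0.32 between CD8 and CD4 T cells in WT (SE 0.10, edgeR adjusted p = 0.0568, 0.0105 with the replicate block, and called in DESeq2 and without WT CD4 replicate 1) and by -0.14 in STAT3KO (SE 0.10). Stat2 differed by -0.27 in WT (SE 0.13, edgeR adjusted p = 0.175, and 0.0260 with the block) and by -0.43 in STAT3KO (SE 0.13, edgeR adjusted p = 0.0726, and 0.00358 with the block). Both were at their highest mean level in STAT3KO CD4 T cells. Stat3 differed by 0.00473 between the lineages in WT (SE 0.11, 95% interval -0.26 to 0.27), with CPM values that overlapped. Stat6 differed by -0.14 in WT and -0.17 in STAT3KO (SE 0.15 each), and neither was called with or without the block.

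**Figure D3:**
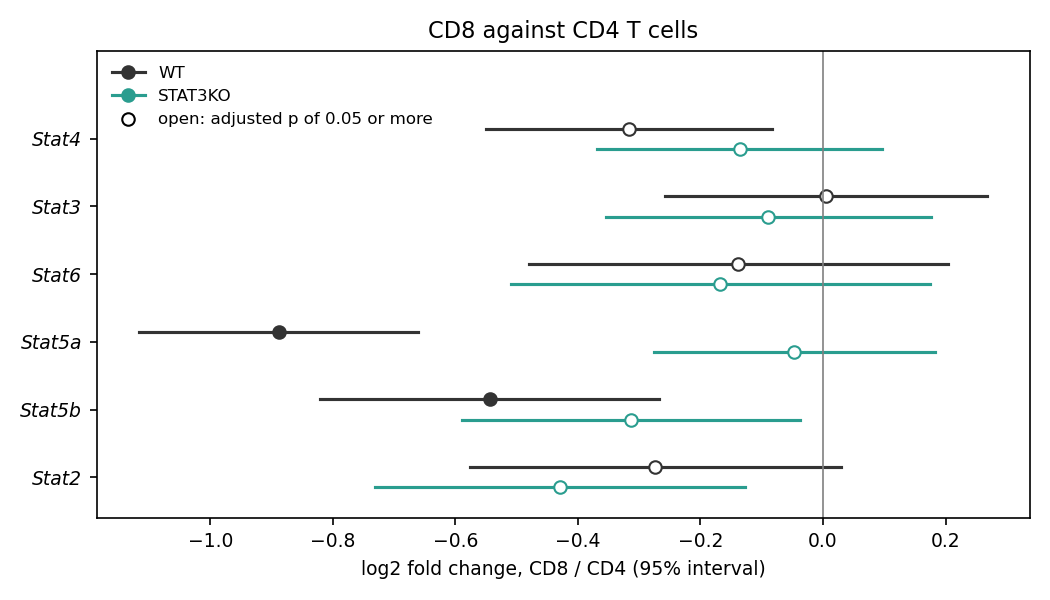
Log2 fold change of each STAT gene in CD8 against CD4 T cells (horizontal axis) with its 95% interval, in WT (black) and STAT3KO T cells (green); filled points have an adjusted p under 0.05. Stat5a and Stat5b are called in WT, at -0.89 and -0.54, and the STAT3KO value of Stat5a lies at -0.05.

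Beside this comparison, the CD8 libraries had more Itgax than the CD4 libraries (160 to 272 CPM against 13.1 to 15.7) and a higher B cell list (12.3 to 13.1 CPM against 0.942 to 2.78), again through Cd79b. The part of these transcripts in the STAT values was not tested.

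Since Stat5a lies next to the targeted gene, the other genes of the region were examined. Of 52 other genes within 500 kb of Stat3, 37 were tested. In CD4 T cells 4 of them were called, 1 lower and 3 higher, which is close to the 11.6% called of all genes: Stat5a was lower, and Dhx58 (0.55, SE 0.11), Psmc3ip (0.99, SE 0.19) and Ccr10 (2.15, SE 0.50) were higher. Dhx58, which encodes an RNA sensor of the interferon response, lies 183 kb from Stat3 on the Stat5 side, and Psmc3ip and Ccr10, a chemokine receptor gene, lie 153 and 233 kb away on the other side. In CD8 T cells 0 of the 37 were called by edgeR's quasi-likelihood test, DESeq2 called 1 and edgeR's likelihood-ratio test 2. With the replicate block 10 were called for CD4 and 3 for CD8. Without the 2 Stat5 genes, the median log2 fold change of the 35 remaining genes was -0.01 for CD4 and -0.03 for CD8. Leaving out either library of either CD4 group left 1 gene called in CD4 T cells, which was Stat5a.

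**Figure D4:**
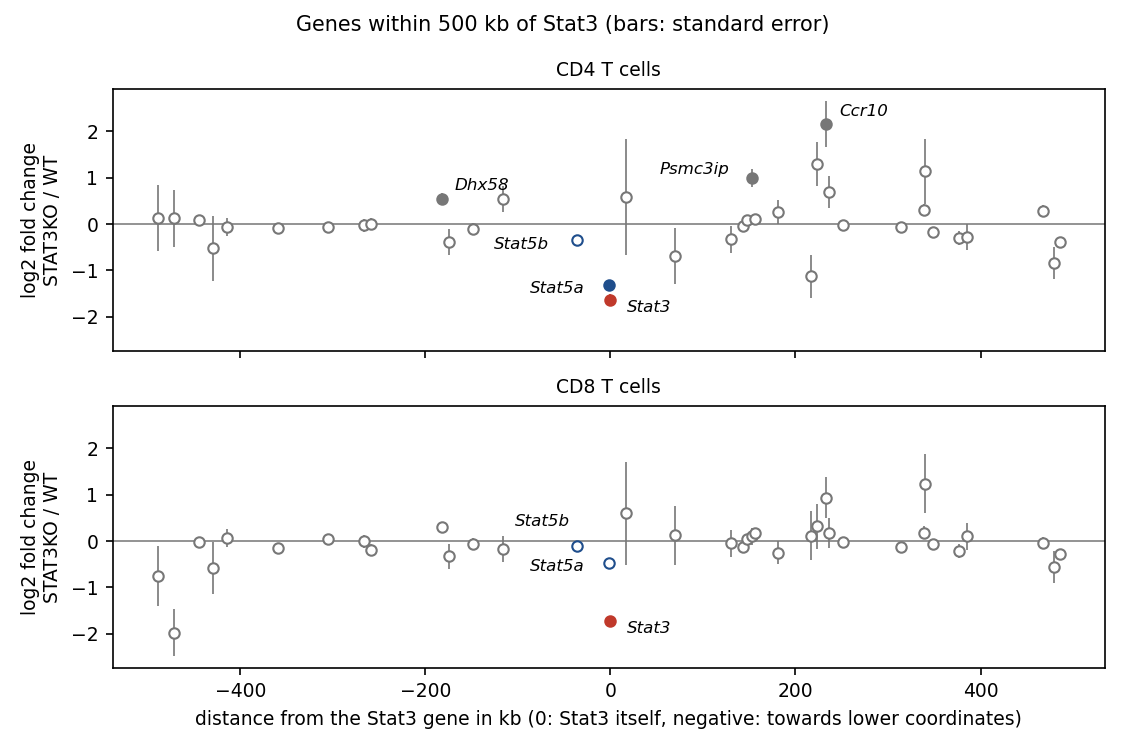
Log2 fold change with its standard error (vertical axis) of Stat3 (red), the Stat5 genes (blue) and the other tested genes within 500 kb (grey) against their distance from Stat3 in kb, in CD4 (top) and CD8 T cells (bottom); filled points have an adjusted p under 0.05. Stat3 and Stat5a lie lowest among the called genes in CD4 T cells, and Stat3 is the one filled point in CD8 T cells.

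The rest of the pathway was read from 13 lists of JAK-STAT genes: the JAK kinases, partners and cofactors, negative regulators, receptors by the STAT they activate, and textbook targets by STAT. Of their 96 different genes that were tested, 31 were called for CD4 and 13 for CD8 (against 11.6% and 2.07% of all genes). The lists were chosen with earlier results of these data known, so their counts describe the lists and do not test them. These counts depended on the fit. With the replicate block they were 56 and 41, the 4 CD8 libraries alone gave 1 in CD8 T cells, and leaving out 1 library at a time gave 9 to 33 in CD4 and 0 to 13 in CD8.

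Of the 4 JAK kinases, 1 was called. Jak3, the kinase bound to the common gamma chain, was at 234 ± 54.7 CPM in WT CD4 and 123 ± 20 CPM in STAT3KO CD4 T cells (SD, n = 2, -0.93, SE 0.20, edgeR adjusted p = 0.0266). The CD8 levels were 184 ± 36.5 and 95.3 ± 4.31 CPM (-0.95, SE 0.20, edgeR adjusted p = 0.0635). Jak1, Jak2 and Tyk2, which serve other cytokine receptor chains, differed by -0.0029, -0.33 and 0.53 in CD4 and by 0.26, 0.19 and 0.16 in CD8 T cells. None of these was called. The list's median log2 fold change was -0.17 (CD4) and 0.17 (CD8), where all genes tested had medians of 0.02 and -0.01.

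Irf9, the DNA-binding partner of STAT2, was the 1 of 5 partners and cofactors that was called, and it rose in CD4 T cells from 121 ± 15.7 to 184 ± 1.18 CPM (0.60, SE 0.13, edgeR adjusted p = 0.0234). The CD8 levels were 96.2 ± 9.83 CPM in WT and 136 ± 11.5 CPM in STAT3KO (0.50, SE 0.13, adjusted p = 0.0931 in edgeR). Of 15 textbook targets of STAT2 with IRF9, 5 rose in CD4 (Ifit1, Ifit3, Rtp4, Xaf1 and Irf9) and 4 in CD8 T cells (Ifit1, Rtp4, Xaf1 and Usp18), and none fell. Most of these encode antiviral or interferon-induced proteins, and Usp18 encodes an inhibitor of interferon receptor signalling. Xaf1 went from 153 ± 3.6 to 297 ± 25.9 CPM in CD4 and from 116 ± 5.67 to 205 ± 12.5 CPM in CD8 T cells. The median was 0.69 for CD4 and 0.82 for CD8, and those of the partners and cofactors 0.06 and 0.12. Ifnar2, a chain of the type I interferon receptor, was the 1 of 3 tested STAT2 receptor genes that was called, lower in CD4 T cells, at 39.2 ± 0.848 CPM against 72.8 ± 12.4 CPM in WT (list medians -0.19 and 0.04).

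Textbook targets of STAT3 fell most often. Of 14, 10 were called lower for CD4 and 5 for CD8, none was called higher, and the medians were -0.88 and -0.83. Socs3, the feedback inhibitor of gp130 receptors, fell from 368 ± 1.43 to 117 ± 26.6 CPM in CD4 and from 184 ± 30.7 to 69.2 ± 18.6 CPM in CD8 T cells. Bcl3, a nuclear IkB protein, fell from 63.9 ± 10.4 to 11.2 ± 1.32 CPM and from 39.0 ± 4.79 to 8.77 ± 0.349 CPM. Bcl6, the follicular helper regulator, fell from 102 ± 16.9 to 22.0 ± 1.36 CPM and from 11.7 ± 2.53 to 3.23 ± 1.3 CPM. Il21 and Il17a also fell in both, and the genes called in CD4 T cells included Batf, Hif1a, Il23r and Pim1. Il17a had at most 0.0457 CPM in the STAT3KO CD4 libraries, below the 0.137 to 0.147 CPM that 3 counts make there, so no fold change is given for it.

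Receptors of STAT3-activating cytokines moved in both directions. Of 9, 1 rose and 3 fell in CD4 T cells. Il10ra, the ligand-binding chain of the IL-10 receptor, rose from 87.9 ± 13.4 to 270 ± 20.6 CPM in CD4 (1.62, SE 0.15, edgeR adjusted p = 0.00142) and from 130 ± 12.3 to 225 ± 28.6 CPM in CD8 T cells (0.80, SE 0.15, edgeR adjusted p = 0.0457). Il6ra fell in CD4 T cells from 149 ± 4.53 to 62.7 ± 0.46 CPM, Il21r from 133 ± 15.5 to 89.3 ± 2.83 CPM, and Il23r from 7.05 ± 1.72 to 0.358 ± 0.0109 CPM. Of these 9, Il10ra alone was called in CD8 T cells. The list's medians were -0.08 and -0.29.

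For the STAT5 pathway, 2 of 7 receptor genes rose in CD4 T cells and none was called in CD8 T cells by edgeR. Il2rb, the signalling chain shared by the IL-2 and IL-15 receptors, rose from 778 ± 61.5 to 1459 ± 35.7 CPM (0.91, SE 0.10, edgeR adjusted p = 0.00217), and Il15ra from 14.6 ± 0.0802 to 21.4 ± 0.859 CPM. The receptor genes' median was 0.55 for CD4 and -0.14 for CD8 (-0.15 without Il9r, which had at most 3 counts in each CD8 library). Of 11 textbook targets of STAT5, 1 rose and 3 fell in CD4 T cells, and 1 rose and 2 fell in CD8 T cells, with medians of 0.21 and -0.35. Ccnd2, a D-type cyclin gene, rose in both (163 ± 35.9 to 300 ± 11.1 CPM in CD4 and 92.9 ± 1.21 to 164 ± 14.2 CPM in CD8). Pim2, a survival kinase gene, fell in both (141 ± 17.9 to 83.4 ± 2.42 CPM and 66.6 ± 3.23 to 43.2 ± 0.297 CPM). Bcl2, an inhibitor of apoptosis, and Pim1 fell in CD4, and Osm, a cytokine of the IL-6 family, in CD8 T cells.

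Genes of the STAT4 and STAT6 pathways were read in the same way. Of the 2 IL-12 receptor genes and 9 textbook targets of STAT4, 0 were called in either cell type by edgeR's quasi-likelihood test, the targets' medians were 0.12 and -0.01, and the receptors' medians 0.36 and 0.11. Il4ra, the IL-4 receptor chain, fell in CD4 T cells from 160 ± 29.3 to 76.1 ± 0.849 CPM (-1.07, SE 0.17, edgeR adjusted p = 0.00711). Its CD8 levels were 95.4 ± 18.2 and 56.6 ± 1.85 CPM (-0.75, edgeR adjusted p = 0.0654). Il4ra counts both among the STAT6 receptors, where it was 1 of 2, and among the textbook targets of STAT6, where Il4 also fell in CD4 T cells, as 2 of 6 tested. The medians were -0.56 and 0.12 for the receptors and -0.43 and -0.23 for the targets (-0.18 for CD8 without Il4, which is at or under 3 counts there). Il4 was low, at 9.68 and 3.40 CPM in WT and 1.40 and 0.777 CPM in STAT3KO CD4 T cells.

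Among 19 negative regulators, 1 rose and 4 fell in CD4 T cells, and 1 rose and 1 fell in CD8 T cells. Besides Socs3, those that fell in CD4 T cells were Socs1, an inhibitor of JAK kinases (41.5 ± 3.45 to 22.7 ± 3.35 CPM), Ptpn1, a phosphatase of JAK kinases (405 ± 38.9 to 242 ± 22 CPM), and Sh2b3, a signalling adaptor (61.2 ± 6.19 to 38.9 ± 0.318 CPM). Socs5 rose from 10.1 ± 1.76 to 16.8 ± 1.51 CPM in CD4 and Usp18 from 3.23 ± 0.785 to 8.48 ± 0.0604 CPM in CD8 T cells, where Socs3 fell. The list's medians were 0.04 and -0.01.

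**Figure D5:**
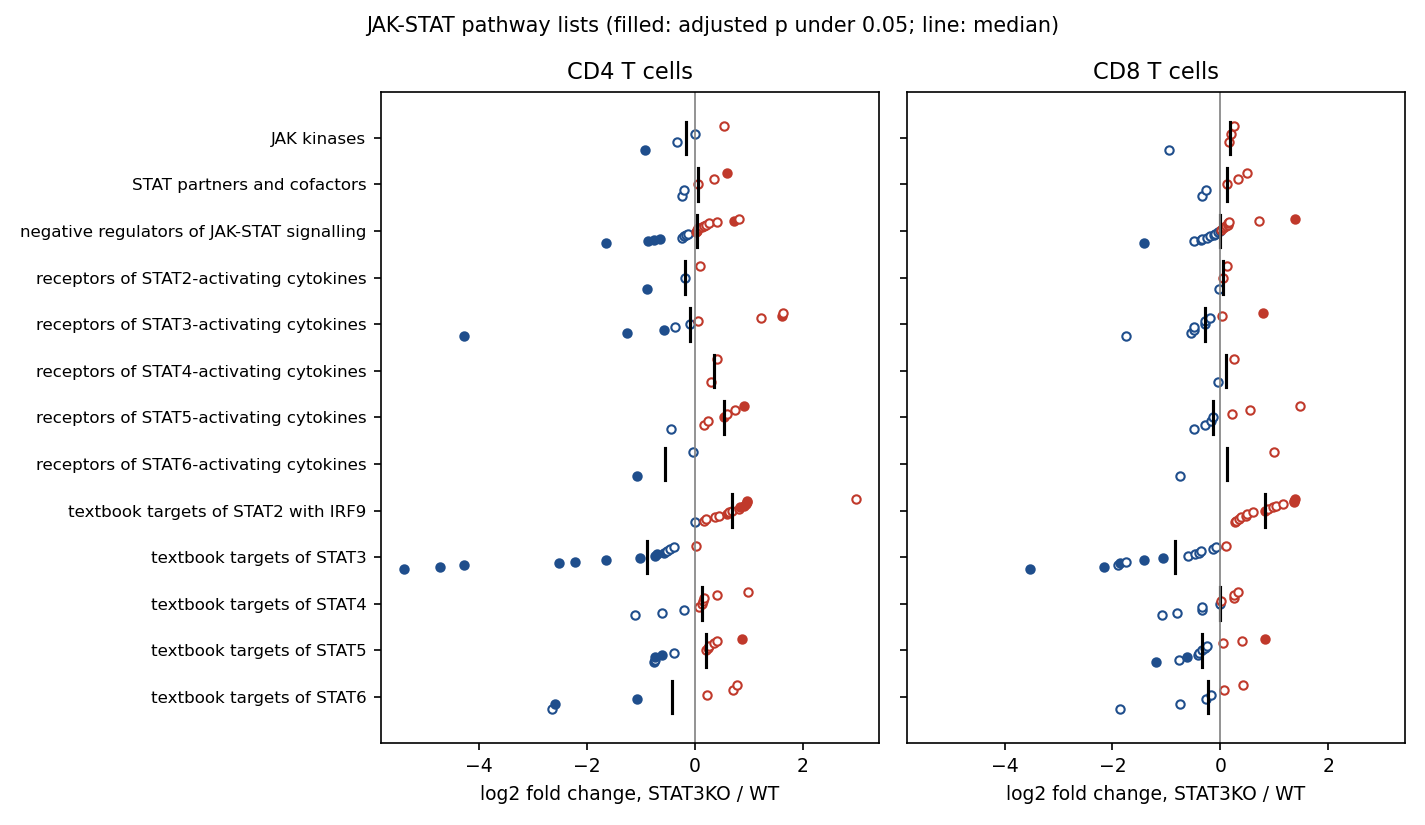
Log2 fold change in STAT3KO against WT (horizontal axis) of each tested gene of 13 JAK-STAT lists (rows) in CD4 (left) and CD8 T cells (right); blue and red points lie below and above 0, filled points have an adjusted p under 0.05, the line is the list's median, and the lowest fitted values in CD4, Il17a among them, rest on STAT3KO counts near 0. Targets of STAT3 lie mostly below 0 (10 of 14 called lower in CD4) and targets of STAT2 with IRF9 mostly above 0 (5 of 15 called higher in CD4).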

How the data were processed

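The mRNA of sorted donor T cells (4 groups, 8 libraries) was sequenced. Per the study's methods, the authors aligned single-end reads to mm10 with STAR, summed them per RefSeq gene with HTSeq-count, and deposited raw counts per gene, the RPKM made from them and each gene's exon length. The labels' growth and treatment fields describe an adipogenic cell line and were not used, and the labels and methods name different library kits. No column was left unmapped.

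The members and lists were chosen with earlier results of these data known. Counts were tested with edgeR 4.0.16 (R 4.3.3): TMM scaling (factors 0.982 to 1.03), filterByExpr (minimum count 10), 1 mean per group over all 8 libraries, the quasi-likelihood test and Benjamini-Hochberg adjustment over 12428 genes. Fold changes are fitted log2 values, and the 95% intervals come from the fit. Levels between genes were compared as deposited RPKM only. The named genes are the 6 STAT genes, the JAK kinases and Irf9, other list genes and genes within 500 kb of Stat3 that were called, and for each STAT gene the 3 genes of most similar profile (Pearson's r, mean log2 CPM of at least 3). A few genes that met these rules are not reported here. Alternatives were DESeq2 1.42.0, the likelihood-ratio test, RLE factors, library totals, no filter, a replicate block, only the libraries compared, limma 3.58.1 on log2(RPKM + 1) and log2(RPKM + 0.1), and leaving out each library. The quasi-likelihood fit, but none of the alternatives, was tested on simulated data.

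Replicate numbers stand in the sample titles, and what they share is not given. Deviations of same-numbered libraries from their group means correlated at 0.424 to 0.671 over genes in all 6 pairs of groups. The block was therefore read as a pairing. The main fit has no block, so it counts these shared deviations as spread within groups. Replicates differed by more than counting noise in all 4 groups (chi-square over degrees of freedom 23.0 to 65.9).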

Additional observations from a re-analysis of the deposited data

How the results depend on the processing

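Stat3 in both cell types and averaged, Stat5a in CD4 T cells and averaged, and Stat5a between the lineages in WT kept their direction and call in every alternative run, that is 18 per comparison and 17 for the average. The fit with the replicate block, which pairs libraries of the same number, called 4 of the 6 STAT genes for STAT3KO against WT in CD4, 3 in CD8 and 6 on average, 4 and 2 for CD8 against CD4 in WT and STAT3KO, and 1 for the difference of the effects. In the same order of comparisons, it called 3747, 2258, 4874, 5232, 3689 and 403 of the 12428 genes tested. It called 10 and 3 genes near Stat3, and 56 and 41 list genes, in CD4 and CD8. Beyond the calls named above, it changed no call of a STAT gene. Each count of STAT genes called for STAT3KO against WT, here and below, includes Stat3, the targeted gene. DESeq2 and the likelihood-ratio test each called 2 STAT genes in CD8, 1 for CD8 against CD4 in STAT3KO and 1 for the difference, and DESeq2 called 4 on average. In the whole table they called 885 and 815 genes in CD8 and 190 and 137 for the difference, near Stat3 1 and 2 in CD8, and 23 list genes each in CD8. Of the 1555 genes the main fit called for CD8 against CD4 in STAT3KO, they also called 1495 and 1541. On average, DESeq2 also called 2298 of the 2399 genes called by the main fit. Their full counts for these comparisons are not given here. Without the filter, 2 STAT genes, 454 genes and 1 gene near Stat3 were called in CD8, and 44 genes for the difference. With only the libraries compared, 37 genes were called in CD8 and 1919 for the lineages in WT, with 2 near Stat3 in CD4 and 1 list gene in CD8, and these fits use fewer libraries. With limma on log2(RPKM + 1), 13 genes were called for the difference and 1 near Stat3 in CD8, and without the filter on low values 67 genes and 2 list genes in CD8 and 19 for the difference. The cause of these changes was not tested.

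Leaving out 1 library at a time gave 412 to 1307 called genes in CD4, 7 to 224 in CD8, 1214 to 2165 on average, 1546 to 2598 for the lineages in WT, 457 to 1554 in STAT3KO and 0 for the difference. It gave 1 to 4 genes near Stat3 in CD4, 9 to 33 list genes in CD4 and 0 to 13 in CD8, and 1 to 3 STAT genes for the lineages in WT. The list genes called in CD4 were 12 and 9 without STAT3KO CD4 replicates 1 and 2 and 18 without WT CD4 replicate 2. In CD8 they were 0 without either STAT3KO CD8 library, 2 and 1 without WT CD8 replicates 1 and 2, and 6 without either STAT3KO CD4 library. Between the lineages in WT, Stat5b was lost without WT CD8 replicate 2 and Stat4 was gained without WT CD4 replicate 1. A lone library in a group is assumed to vary like the other groups.

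Signs reversed only for values near 0. For Stat3 between the lineages in WT, the fit without a filter gave -0.0081 and limma -0.0080 and -0.0081, and leaving out libraries -0.025 to -0.00037. Leaving out libraries gave -0.23 to 0.024 for Stat3 between the lineages in STAT3KO and -0.22 to 0.036 for its difference of effects, positive only without STAT3KO CD8 replicate 1, and the Stat6 difference of effects ranged from -0.17 to 0.13. No scaling moved the median of all genes by over 0.1. The mean RPKM of the 6 STAT genes in WT CD4 T cells moved by less than 1 SD when recomputed from the counts with TMM library sizes, and the other groups were not recomputed.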

Other observations

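Genes outside the pathway lists were ranked by the likeness of their log2 CPM profile to each STAT gene over the 8 libraries, among 8844 genes of sufficient level. These libraries form 4 groups and share replicate numbers, so Pearson's r is given as a description. Among those closest to Stat3 were Glrx5 (r = 0.993), which encodes a mitochondrial glutaredoxin of iron-sulfur cluster assembly, and Nab1 (0.984). Closest to Stat5a were Mia2 (0.987), Tirap (0.985), an adaptor of Toll-like receptors, and Pik3cd (0.983), the leukocyte PI3-kinase catalytic subunit gene.

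The nearest profiles to Stat5b were those of Mink1 (0.988), Mboat7 (0.984) and Araf (0.981), a RAF kinase gene. For Stat4 they were Crebrf (0.992), Arhgap15 (0.987) and Mier3 (0.976), for Stat6 Slco3a1 (0.992), Zfp866 (0.990) and Trim56 (0.986), and for Stat2 Plcb3 (0.982), Nudt22 (0.981) and Nck2 (0.980), an SH2 and SH3 adaptor gene.

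Among the STAT genes, r over the same 8 libraries was 0.81 for Stat3 with Stat5a, 0.81 for Stat5a with Stat5b, 0.45 for Stat3 with Stat5b and 0.86 for Stat2 with Stat6, and -0.62 for Stat3 with Stat4. The difference between libraries numbered 1 and 2 had the same sign in all 4 groups for Stat2 (0.09 to 0.27 on the log2 scale), Stat5b (0.00822 to 0.24) and Stat6 (0.11 to 0.29), all higher in number 1.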
